A study of Mus musculus with 16 samples.

Results

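The cytosolic ribosomal protein genes were taken as the genes whose platform symbol is Rpl or Rps followed by a number and an optional final a, l or x, or is Rplp0, Rplp1 or Rplp2. A gene counted only where at least 1 probe set was assigned to it alone. The rule found 45 of the 18194 genes named in this way, 24 with large-subunit symbols and 21 with small-subunit symbols, and 98 probe sets read them. RefSeq holds 82 mouse symbols of this form, and 28 such symbols were carried only by probe sets assigned to several genes, so they are not among the 45. Rps4l is listed in RefSeq as a transcribed pseudogene, and the other 44 are listed as protein-coding. Of the 45 genes, 42 passed the filter on dim probe sets and were tested, 22 of the large and 20 of the small subunit.

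The measurements were made on 16 Affymetrix mouse genome arrays, 1 per culture sample, of total RNA from cortical neurons. The neurons came from embryonic day 16.5 embryos of C57BL/6 mice and carry no labelled mutation. On day 5 in vitro they received, for 6 h with polybrene, a lentivirus whose shRNA targets c-Fos or, in the control arm, firefly luciferase, which mouse cells do not have. On day 7 all cultures were silenced and then given KCl, which depolarises neurons and mimics activity, for 0, 1, 3 or 6 h. The groups were therefore c-Fos shRNA at 0, 1, 3 and 6 h and control shRNA at 0, 1, 3 and 6 h, with 2 arrays each. All groups carried a virus, and 1 targeting shRNA stood against 1 control shRNA, so the loss of c-Fos and any other effect of that shRNA cannot be told apart. Both arrays of a group are labelled biological replicates, but whether they stem from different dissections is not said, so a p-value reflects only how far these arrays spread. In whole cultures, fewer cells of a type and less RNA per cell cannot be told apart.

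The ribosome is built from a large and a small subunit, each a folded ribosomal RNA with a set of ribosomal proteins that are made in the cytoplasm and assembled in the nucleolus. Most ribosomal protein mRNAs in mammals begin with a C followed by a run of pyrimidines, the 5′ terminal oligopyrimidine tract, through which mTOR signalling and the RNA-binding protein LARP1 control their translation. In neurons the synthesis of new protein is required for lasting synaptic change, and ribosomes and ribosomal protein mRNAs are found in dendrites and axons as well as in the cell body. Some ribosomal proteins also act outside the ribosome. Free Rpl11 and Rpl5, bound to 5S RNA, hold back the p53 regulator Mdm2, and Rpl22 binds RNA and is known in mouse to keep down the mRNA of its paralog Rpl22l1.

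The shRNA lowered its target, Fos, at every time, by 0.77, 0.75, 1.74 and 1.85 on the log2 scale at 0, 1, 3 and 6 h (limma adjusted p at most 0.000242, n = 2 arrays per group). Neuronal markers were above the filter for all 7 genes of their list, with a summed intensity of 66052 to 74825 with c-Fos shRNA and 69260 to 77230 with control shRNA. Markers of excitatory neurons ran from 10543 to 15165 and from 11271 to 13195, and those of inhibitory neurons from 10069 to 15596 and from 11239 to 15190, in the same order. Of the microglial list, 1 of 6 genes was above the filter, and Aif1, C1qa, Cx3cr1, P2ry12 and Tyrobp were below it. The sum of this list was 254 to 328 with c-Fos shRNA and 252 to 305 with control shRNA. Each sum covers all genes of its list on the array, including those below the filter. Astrocyte markers were all above the filter, at 12257 to 18343 with c-Fos shRNA and 12703 to 19096 with control shRNA. Markers of dividing progenitors were also all above it, at 9100 to 11898 and 9173 to 12338 in the same order. Of the oligodendrocyte lineage 5 of 6 genes were above the filter, with Mog below, and the list summed to 10264 to 15924 and 9038 to 17107. Of the vascular and fibroblast list 4 of 7 were above it, with Cldn5, Col1a1 and Pecam1 below. That list summed to 396 to 778 and 492 to 894. Single markers did move, where a call is a Benjamini-Hochberg adjusted p under 0.05 in limma over all 13916 genes tested. Between the arms on average, 3 of the 7 neuronal markers were called higher and 4 lower with c-Fos shRNA, and 1 astrocyte marker higher and 2 lower, against 25.2% of genes higher and 22.7% lower. Markers of excitatory neurons had 2 higher and 1 lower, those of dividing progenitors 1 and 2, and the inhibitory, oligodendrocyte and vascular lists 1 lower each. With KCl at 6 h, 4 of 5 inhibitory markers rose in the c-Fos arm and 3 in the control arm, against 16.1% and 16.7% of genes. Of the 7 neuronal markers 3 rose and 1 fell, and 2 rose and 1 fell, in the same order of arms. Of 4 excitatory markers 2 and 1 rose, 1 astrocyte marker fell in each arm, and of the dividing progenitor markers 1 rose and 1 fell with c-Fos shRNA and 1 rose with control shRNA. The part of these shifts in the results for the members was not tested. The array's 3′ control probe set for 18S ribosomal RNA read 4240.9 ± 241 (SD, n = 8) in the c-Fos arm and 5126.1 ± 279 in the control arm, from 3838.7 to 4557.7 against 4805.1 to 5601.9, so the arms did not overlap. The other 18S probe sets did overlap between the arms, the middle one at 2528.5 to 4156.8 against 2912.6 to 5012.2 and the 5′ one at 5217.7 to 8009.5 against 6092.4 to 9306.9. Their part in the arm differences below was not tested. The 3′ to 5′ ratio of Actb, a measure of RNA integrity, was 1.19 and 1.21 and that of Gapdh 0.917 and 0.918, in the same order.

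The promoter windows of the members that later results turn on are shown first, because a pyrimidine run at the start of the transcript is the feature that these mRNAs are known for. Each holds the 15 bases before and the 15 bases from the start of the gene in RefSeq, build GRCm38.p6, read 5′ to 3′ on the gene's strand. Capitals mark a run of at least 7 C or T on either side of the start or across it. The runs of Rps27l and Rps25 lie wholly before the start shown, so they are outside the transcript listed from it. For Rpl22 and Rps27l RefSeq lists 2 starts, and the first is shown.
Rpl12, chr2:32961697-32961726, plus strand: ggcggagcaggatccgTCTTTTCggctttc
Rpl14, chr9:120571502-120571531, plus strand: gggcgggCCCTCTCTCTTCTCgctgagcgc
Rpl13a, chr7:45128731-45128760, minus strand: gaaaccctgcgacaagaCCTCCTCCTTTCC
Rpl22, chr4:152325711-152325740, plus strand: ttcgccctgggaaaagcaatagctggccga
Rps27l, chr9:66946071-66946100, plus strand: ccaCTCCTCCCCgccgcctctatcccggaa
Rps15, chr10:80292416-80292445, plus strand: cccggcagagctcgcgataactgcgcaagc
Rps27, chr3:90213634-90213663, minus strand: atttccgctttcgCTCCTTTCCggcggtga
Rps25, chr9:44407699-44407728, plus strand: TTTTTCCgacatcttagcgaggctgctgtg
Rpl27a, chr7:109519180-109519209, plus strand: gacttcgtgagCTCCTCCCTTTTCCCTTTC
Rps6, chr4:86857353-86857382, minus strand: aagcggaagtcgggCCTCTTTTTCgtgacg

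Of these windows, the one of Rpl27a had the longest run, 19 pyrimidines, followed by Rpl14 with 14 and Rpl13a with 13. The windows of Rpl22 and Rps15 had no run of 7. A window was listed for 39 of the 45 members. In 23 of them, 59.0%, a run of at least 7 pyrimidines lay within 15 bases of a start, against 21.3% of 27025 genes with a window. These counts include runs that lie wholly before the start. Over the longer window of 250 bases before and 50 after the start, and on both strands, the ETS-type letters CCGGAAG were in 19 members, 48.7%, against 9.93% of genes. The YY1-type letters AAGATGGC were in Rpl13a, Rpl22 and Rps27, 7.69% of members against 3.19% of genes. The cyclic AMP response element letters TGACGTCA were in Rpl27a and Rps9, 5.13% against 2.03%. The AP-1 letters TGANTCA, the kind of site that c-Fos with a Jun protein binds, were in the window of 1 member, Rpl22, 2.56% of members against 8.97% of genes. That match lay from 70 to 64 bases before the listed start, and its letters are in capitals in the stretch below, chr4:152325646-152325672 on the plus strand.
Rpl22: ccagtctcccTGAGTCAttcgcagtgg

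A match of letters is a description of the window and says nothing of whether a factor binds there.

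The probe sets of these genes were among the brightest on the arrays. For each gene the probe set with the highest mean stood for it, and 35 of the 42 tested members ranked in the top 10% of tested genes and 25 in the top 1%. On 7 of the 16 arrays the brightest probe set of all belonged to a member. The 7 members below the top 10% were Rps4l, Rps25, Rps6, Rpl27a, Rpl12, Rpl14 and Rps27. Such ranks describe the probe sets, since the brightness of different probe sets does not rank their mRNAs. Of the 7 members below the top 10%, Rps4l, Rps25, Rpl12, Rpl14 and Rps27 were each read by 1 probe set. By the probe sets that stood for the genes, the largest changes given below, with KCl and between the arms, came from members among these 7. Over all 16 arrays the highest deposited intensity of a member was, at the median, 1.13 times its lowest, and for 33 members it was under 1.25 times. Rps24 had the narrowest span, at 1.06 times, followed by Rpl27 and Rps4x at 1.07 times. Rpl12 had the widest, from 356 to 1154 or 3.24 times, followed by Rps27 at 1.99, Rps4l at 1.96 and Rpl14 at 1.88. After quantile normalization, the median log2 level of the members on an array lay between 13.66 and 13.70 with c-Fos shRNA. With control shRNA it lay between 13.66 and 13.71. That normalization gives all arrays the same distribution of values, and most members sit at its top. The narrow range of these medians is therefore largely set by the normalization and does not measure how stable the level was.

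The first question was how the members responded to KCl, and few did. At 1 h, 1 of 42 members was called in the c-Fos arm and 0 in the control arm, against 3.36% and 3.12% of all genes tested, and 4 members had an unadjusted p under 0.05 with control shRNA at 1 h. At 3 h, 1 member was called in the c-Fos arm and 5 in the control arm, against 28.2% and 30.3% of genes. At 6 h, 4 were called with c-Fos shRNA (1 higher, 3 lower) and 7 with control shRNA (4 higher, 3 lower), against 41.0% and 44.1% of genes. Over all genes these were 16.1% higher and 24.9% lower with c-Fos shRNA and 16.7% higher and 27.3% lower with control shRNA. Both arms were set against their own 0 h arrays. With the replicate number as a block these counts became 2, 3 and 11 in the c-Fos arm, against 8.33%, 42.9% and 55.0% of genes, and 2, 8 and 11 in the control arm, against 8.15%, 44.4% and 56.9%. Without the block, 31 members were called in none of the 6 KCl comparisons.

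The changes were also small in size. At 6 h the median absolute log2 change of the members was 0.040 in the c-Fos arm and 0.049 in the control arm, against 0.280 and 0.298 over all genes. Changes lay within 0.1 of 0 for 31 members with c-Fos shRNA and for 34 with control shRNA. The signed median was -0.02 and 0.01, against -0.06 and -0.07 over all genes. Bright probe sets changed less in general. The top 10% of genes by level had median absolute changes of 0.137 and 0.143, with 40.2% and 42.6% called. In the top 1%, the 25 members had 0.031 and 0.041, with 3 called in each arm, and the 115 other genes had 0.049 and 0.061, with 21 and 28 called. The plot of change against level shows this narrowing at the bright end. Whether the brightest probe sets were near saturation was not tested.

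**Figure D1:**
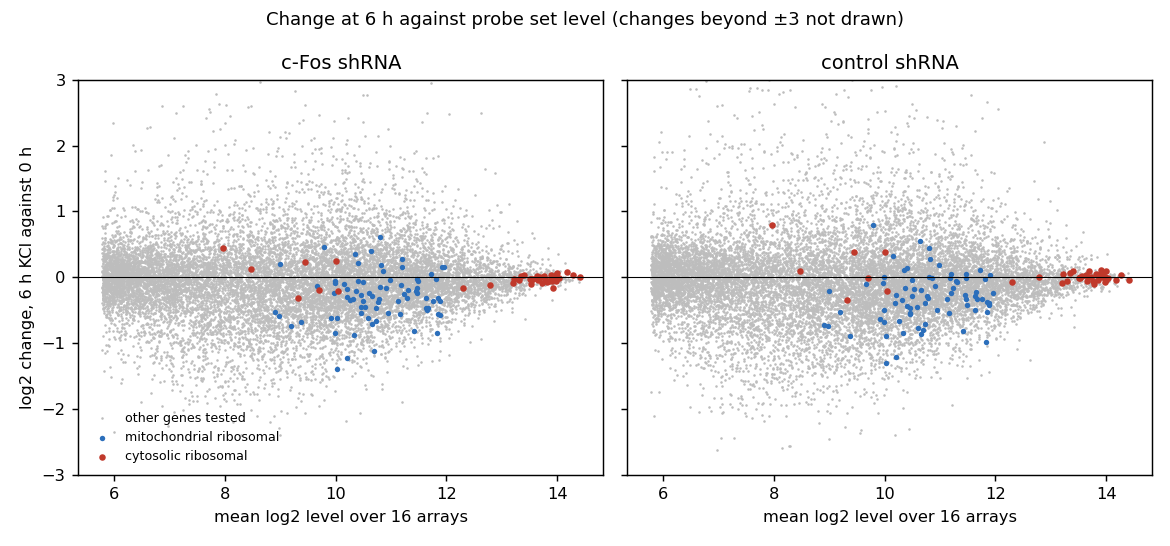
Log2 change at 6 h of KCl against 0 h (y axis) and mean log2 level of the gene's probe set over 16 arrays (x axis), with c-Fos shRNA on the left and control shRNA on the right. Each point is a gene. Most of the 42 cytosolic ribosomal protein genes sit at the bright end close to 0, where other genes also change little, and the 76 mitochondrial ribosomal protein genes sit at lower levels and mostly below 0.

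The mitochondrial ribosomal protein genes, which serve the separate ribosome of that organelle, showed another pattern on the same arrays. At 6 h, 6 of 76 rose and 44 fell with c-Fos shRNA, and 6 rose and 47 fell with control shRNA. Their medians were -0.30 and -0.32, against -0.06 and -0.07 over all genes. Of all genes, 16.1% rose and 24.9% fell with c-Fos shRNA, and 16.7% rose and 27.3% fell with control shRNA. The median for the cytosolic members stayed near 0 at each time in both arms, as the plot of KCl changes shows. The mitochondrial probe sets were less bright, with a median standard error of 0.083, and the cytosolic members had 0.038, so the 2 groups of genes were not measured at the same place on the scale.

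**Figure D2:**
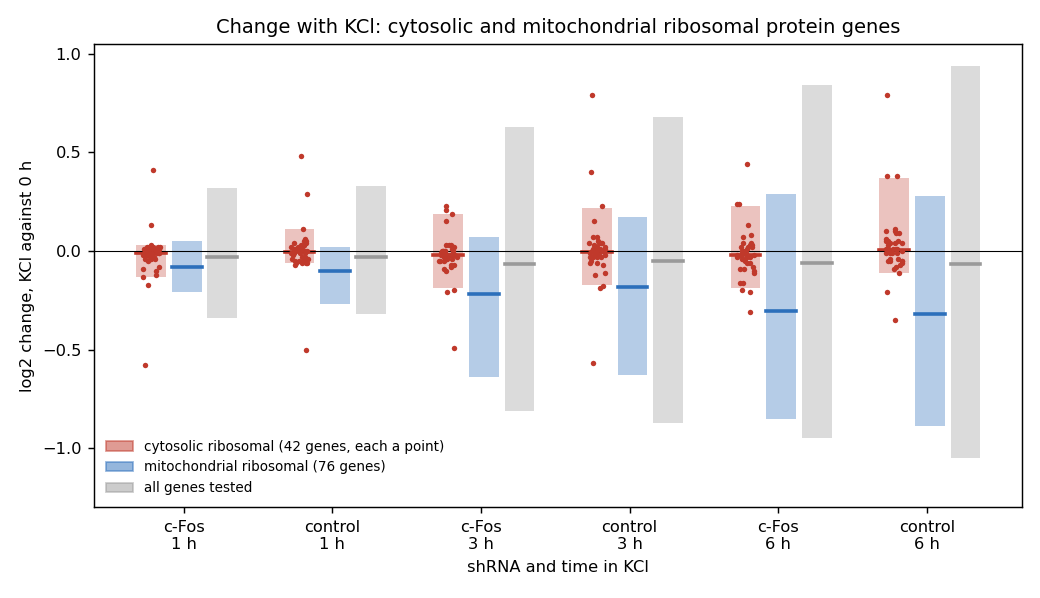
Log2 change with KCl against 0 h (y axis) for each shRNA and time in KCl (x axis). Bars span the 5th to the 95th percentile of the genes, thick lines are medians, and each red point is 1 of the 42 cytosolic ribosomal protein genes. The red medians stay between -0.02 and 0.01 while the blue medians of the 76 mitochondrial ribosomal protein genes reach -0.30 in the c-Fos arm and -0.32 in the control arm at 6 h.

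Among the members that KCl raised, Rps27 moved furthest by the probe sets that stood for the genes. It was read by 1 probe set, the dimmest of those that stood for the 42 tested members. Rps27 is a small-subunit protein with a zinc finger. With c-Fos shRNA its intensities were 192 and 165 at 0 h, 231 and 260 at 1 h, 211 and 204 at 3 h, then 227 and 254 at 6 h. With control shRNA they were 177 and 171 at 0 h, 253 and 253 at 1 h, 286 and 316 at 3 h, then 263 and 330 at 6 h. Every KCl array lay above both 0 h arrays of its arm. The log2 changes in the c-Fos arm over the 3 times were 0.41, 0.23 and 0.44 (SE 0.13 each), and only the last was called (adjusted p = 0.0154). That call was lost without replicate 2 at 0 h (0.29, adjusted p = 0.159) and without either array at 6 h (0.44 without replicate 1 and 0.43 without replicate 2, adjusted p of 0.0607 and 0.0602). In the control arm the changes were 0.48, 0.79 and 0.79, with adjusted p of 0.071, 0.000452 and 0.000276. With the replicate block the 1 h changes were called in both arms (adjusted p of 0.0469 and 0.0183). The interaction, which is the KCl response in the c-Fos arm less that in the control arm, was -0.57 at 3 h and -0.35 at 6 h and was not called (adjusted p of 0.303 and 0.425).

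Rps25 and Rpl27a rose with control shRNA. Rps25, a small-subunit protein that several viral RNAs need for internal ribosome entry, had intensities of 1016 and 1163 at 6 h and 947 and 915 at 0 h with c-Fos shRNA. With control shRNA it had 1055 and 1060 at 6 h and 891 and 774 at 0 h. The later arrays were the higher ones in both arms. Its log2 change at 6 h was 0.24 ± 0.11 (SE) with c-Fos shRNA (adjusted p = 0.0847, or 0.0385 with the replicate block) and 0.38 ± 0.11 with control shRNA (adjusted p = 0.0105). In the control arm it was already 0.40 at 3 h (adjusted p = 0.0116). Without replicate 2 of that arm at 0 h these were 0.28 at 3 h and 0.26 at 6 h and were no longer called. The 3 h call was also lost without replicate 2 at 3 h (0.38, adjusted p = 0.0646) and the 6 h call without replicate 1 at 6 h (0.37, adjusted p = 0.0512). Rpl27a, a large-subunit protein, had 659 and 700 at 6 h and 583 and 620 at 0 h with c-Fos shRNA, and 786 and 834 at 6 h and 664 and 636 at 0 h with control shRNA. Its change at 6 h was 0.24 ± 0.09 with c-Fos shRNA (adjusted p = 0.0518) and 0.38 ± 0.09 with control shRNA (adjusted p = 0.00421). With the replicate block the change with c-Fos shRNA was called too (adjusted p = 0.0128).

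Rpl12, which sits at the base of the large-subunit stalk where translation factors dock, was the member that KCl lowered most. With c-Fos shRNA its intensities were 1032 and 1154 at 0 h, 687 and 825 at 1 h, 688 and 837 at 3 h, then 771 and 961 at 6 h. With control shRNA they were 567 and 623 at 0 h, 421 and 438 at 1 h, 356 and 407 at 3 h, then 400 and 472 at 6 h. All KCl arrays lay below both 0 h arrays of their arm. The log2 changes with c-Fos shRNA were -0.58, -0.49 and -0.31 (SE 0.13 each), with adjusted p of 0.0236, 0.0106 and 0.0661. With control shRNA they were -0.50, -0.57 and -0.35, with adjusted p of 0.0568, 0.00408 and 0.0381. With the replicate block all 6 changes were called. The 3 h call with control shRNA held in all 16 fits that each left out 1 array. The 1 h call with c-Fos shRNA did not hold without replicate 1 (-0.60, adjusted p = 0.128) or replicate 2 (-0.55, adjusted p = 0.154) of 0 h, or without replicate 1 of 1 h (-0.45, adjusted p = 0.227). The 3 h call with c-Fos shRNA did not hold without replicate 2 of 0 h (-0.47, adjusted p = 0.0638) or replicate 1 of 3 h (-0.37, adjusted p = 0.117). The 6 h call in the control arm was lost without replicate 1 (-0.41, adjusted p = 0.0643) or 2 (-0.30, adjusted p = 0.176) of its 0 h or replicate 1 of its 6 h (-0.26, adjusted p = 0.215), and it stood at an adjusted p of 0.05 without replicate 1 of c-Fos shRNA at 0 h or of control shRNA at 1 h.

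The other KCl calls were all smaller than 0.2 on the log2 scale. Rps27l and Rps4l, described below, were called lower only with the replicate block, and their changes at 6 h in the c-Fos arm were -0.16 and -0.21 (adjusted p of 0.0133 and 0.0347). With c-Fos shRNA at 6 h, Rpl4, Rpl10a and Rpl41 fell by 0.16, 0.09 and 0.08, all of them large-subunit proteins. The call of Rpl41 (adjusted p = 0.0497) held in 1 of the 16 fits that left out 1 array, and another of its probe sets, the only one without a letter tag, was called higher in a fit of single probe sets, at 0.67 (adjusted p = 0.00443). In the control arm the small-subunit genes Rps18, at 3 and 6 h, Rps15, at 3 h, and Rps2, at 6 h, fell by 0.12, 0.11, 0.11 and 0.07. Rpl13a, a large-subunit protein that also silences inflammatory mRNAs in human monocytes, rose by 0.09 at 6 h with control shRNA. A dimmer probe set of Rpl13a, described below, rose further. For Rpl4 the intensities at 6 h with c-Fos shRNA were 14367 and 14248, against 15708 and 16006 at 0 h, and the groups did not overlap. Each of these calls was lost when the arrays were shifted to one median in place of quantile normalization, except that of Rpl13a, whose call was lost with no filter on dim genes (adjusted p = 0.074) and in 10 of the 16 fits that left out 1 array. Of the 18 KCl calls of members, 4 held under every setting tried, and these were Rps27 at 3 and 6 h, Rpl12 at 3 h and Rpl27a at 6 h, all with control shRNA. For Rpl27a this holds for its brighter probe set, while its dimmer one changed by 0.02 ± 0.24 at 6 h with control shRNA and was not called (adjusted p = 0.965).

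The interaction was called for 0 members at 1, 3 and 6 h in limma, against 0.0431%, 0.402% and 1.24% of genes. At 6 h, 4 members had an unadjusted p under 0.05, and with the replicate block Rpl4 at -0.17 (adjusted p = 0.0388) and Rpl41 at -0.13 (adjusted p = 0.0411) were called, against 11.4% of genes in that fit.

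The second question was whether the arms differed. The shares of members called lay nearer those of all genes than they did at 3 and 6 h of KCl. Between c-Fos shRNA and control shRNA, 6, 8, 9 and 11 members were called at the 4 times in order. These were 14.3%, 19.0%, 21.4% and 26.2% of the 42, against 22.3%, 20.8%, 23.3% and 23.8% of all genes. The count of 11 at 6 h moved by over 1.5 times, to 5 without either c-Fos shRNA array or replicate 2 of control shRNA at 6 h and to 6 without replicate 1 of control shRNA at 6 h, and to 6 or 7 under another normalization or with no filter on dim genes. The count of 8 at 1 h was 4 without replicate 2 of control shRNA at 1 h. All were higher with c-Fos shRNA except Rps27 at 3 h and Rpl4 and Rpl10a at 6 h. On the average over the 4 times, 17 members were higher and 6 lower, against 47.9% of genes called, 25.2% higher and 22.7% lower. The count at 0 h became 11 and that at 1 h became 14 with the replicate block, against 38.8% and 37.8% of genes. Most differences were small, and 19 of the 23 called on average were under 0.2 on the log2 scale. The median of the average difference was 0.04, against 0.02 over all genes, and 30 of 42 members lay above 0. The same 4 members, Rpl12, Rpl13a, Rpl22 and Rps4l, were called higher at all 4 times, and Rpl14, Rps15 and Rps27l at 3 times. With the replicate block those 3 were called at all 4 times as well. The block also added calls for Rps19 at 0 and 3 h (0.11 each, adjusted p of 0.00523 and 0.00559) and for Rpl8, a large-subunit protein, at 0 and 1 h (0.10 and 0.12, adjusted p of 0.0334 and 0.0131). Rplp2 at 0 h, Rps24 at 3 h and Rps28 at 6 h were called higher with the block too, by 0.10, 0.06 and 0.11.

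**Figure D3:**
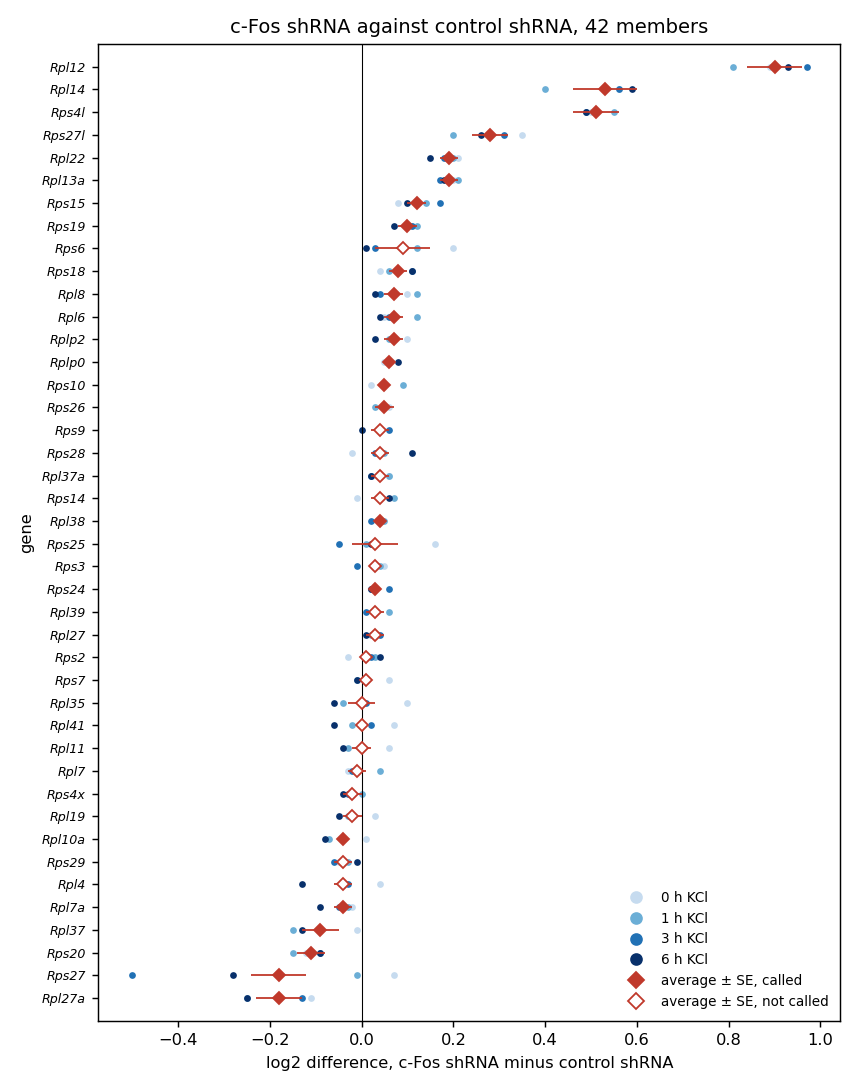
Log2 difference, c-Fos shRNA minus control shRNA (x axis), for each of the 42 tested members (y axis, ordered by the average). Blue points are the 4 times in KCl and red diamonds the average with its SE, filled where called. Rpl12, Rpl14, Rps4l and Rps27l stand to the right at 0.90, 0.53, 0.51 and 0.28, and most other members lie within 0.1 of 0.

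Rpl12 was higher with c-Fos shRNA by 0.89, 0.81, 0.97 and 0.93 at 0, 1, 3 and 6 h (SE 0.13 each, adjusted p at most 0.000643). At 0 h its intensities were 1032 and 1154 with c-Fos shRNA, against 567 and 623 with control shRNA. At 6 h they were 771 and 961 against 400 and 472. The lowest c-Fos shRNA array of any time, at 687, lay above the highest control array, at 623. All 4 calls held in every fit tried. The gene was read by 1 probe set only, so no second probe set bears on it.

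Rpl14, a large-subunit protein, was higher by 0.56, 0.40, 0.56 and 0.59, with adjusted p of 0.00963, 0.0543, 0.00927 and 0.00761, and with the replicate block the 1 h difference was called too (adjusted p = 0.015). Its intensities at 6 h were 402 and 454 with c-Fos shRNA, against 242 and 324 with control shRNA, and at 0 h they were 391 and 430 against 262 and 283. The lowest c-Fos shRNA array of all times, 337, lay above the highest control array, 324. The 6 h call was lost without replicate 1 of the control arm at 6 h (0.40, adjusted p = 0.0847). The 0 h call was lost without either c-Fos shRNA array at 0 h (0.57 and 0.56, adjusted p of 0.0505 and 0.052) or replicate 1 of the control arm (0.52, adjusted p = 0.0685), and the 3 h call without replicate 1 of either arm (0.48 each, adjusted p of 0.0815 and 0.0889). The call on the average, 0.53, held in every fit.

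Rps4l, the transcribed pseudogene related to the small-subunit gene Rps4x, was higher by 0.50, 0.55, 0.49 and 0.49. At 0 h it had intensities of 1311 and 1347 with c-Fos shRNA, against 954 and 921 with control shRNA. At 6 h it had 1054 and 1227 against 698 and 877. The groups did not overlap at any time, and the calls held in every fit. Its partner Rps4x was not called at any time.

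**Figure D4:**
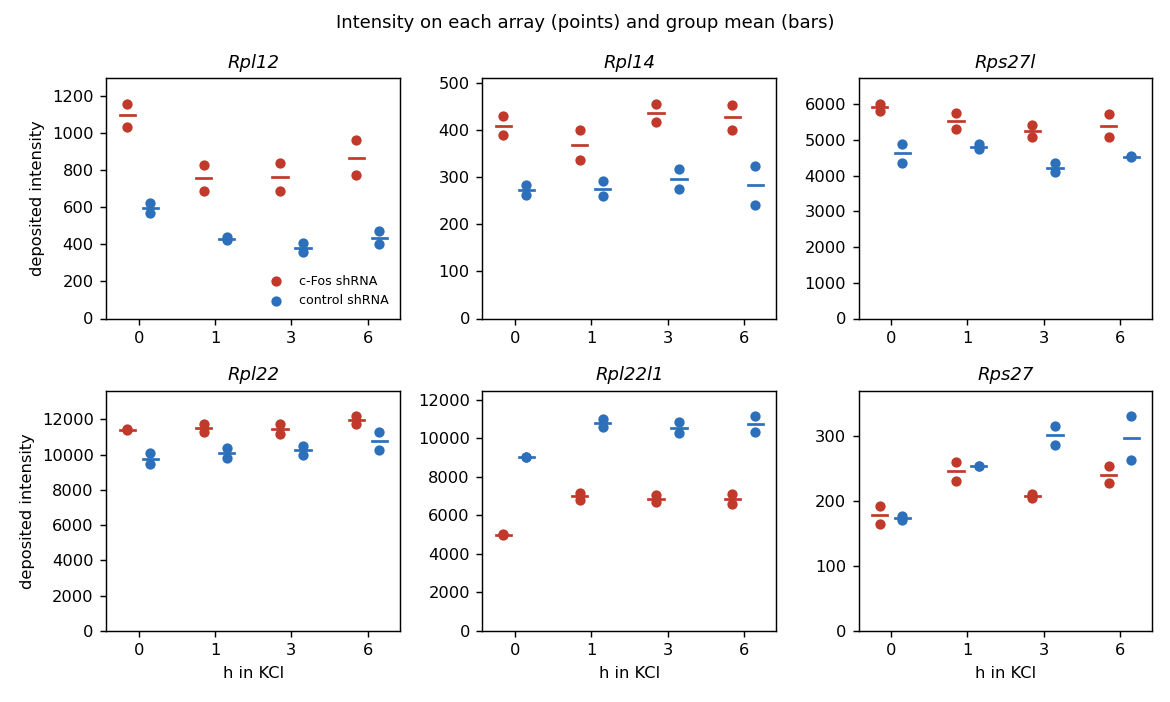
Deposited intensity (y axis) on each array against hours in KCl (x axis) for 5 members and for the paralog Rpl22l1, with red points for c-Fos shRNA and blue points for control shRNA; bars are group means of 2 arrays. Rpl12, Rpl14, Rps27l and Rpl22 are higher with c-Fos shRNA at each time, Rpl22l1 is lower, and the arms of Rps27 overlap at 0 and 1 h and are apart at 3 and 6 h.

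Several members have a paralog whose protein can take the same place in the ribosome. Rpl22, an RNA-binding large-subunit protein, was higher with c-Fos shRNA by 0.21, 0.20, 0.18 and 0.15 at 0, 1, 3 and 6 h (adjusted p at most 0.0127). At 0 h its intensities were 11392 and 11426 with c-Fos shRNA, against 9439 and 10067 with control shRNA. At 6 h they were 11725 and 12162 against 10252 and 11294. The groups were apart at each time. The 3 h and 6 h calls were lost under no further normalization (adjusted p of 0.0547 and 0.0772), and the 6 h call without replicate 1 of the control arm (0.11, adjusted p = 0.119) or replicate 2 of the c-Fos arm (0.14, adjusted p = 0.0682), and it stood at 0.05 without replicate 1 of the c-Fos arm. Rpl22l1, which falls outside the symbol rule, was lower by 0.86, 0.63, 0.62 and 0.63 (SE 0.06, adjusted p at most 1.92e-05). It had 5026 and 4977 with c-Fos shRNA, against 9047 and 9050 with control shRNA, at 0 h, and 6610 and 7091 against 11134 and 10320 at 6 h. The 8 arrays with c-Fos shRNA ran from 4977 to 7179 with a median of 6737, and the 8 with control shRNA from 9047 to 11134 with a median of 10462. KCl raised Rpl22l1 in the c-Fos arm by 0.45, 0.42 and 0.42 over the 3 times and in the control arm by 0.19 at the last. With the replicate block the earlier changes in the control arm, 0.21 and 0.17, were called too (adjusted p of 0.0153 and 0.0133). The 6 h call in the control arm was lost without replicate 1 or 2 of 0 h (0.20 and 0.19, adjusted p of 0.0583 and 0.0764) or replicate 1 of 6 h (0.11, adjusted p = 0.196), all of the control arm. The interaction for Rpl22l1 was 0.24, 0.25 and 0.23 and was not called. All 3 probe sets of Rpl22 were higher with c-Fos shRNA on the average, by 0.19, 0.27 and 0.57.

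Rps27l, known in human cells as a p53-induced relative of Rps27, was higher with c-Fos shRNA by 0.35, 0.20, 0.31 and 0.26, with adjusted p of 0.00607, 0.0841, 0.0112 and 0.0282, and the 1 h difference was called with the replicate block (adjusted p = 0.00521). At 0 h its intensities were 5814 and 5998 with c-Fos shRNA, against 4892 and 4346 with control shRNA. Rps27 itself differed by 0.07 at 0 h and -0.01 at 1 h, was lower by 0.50 at 3 h (adjusted p = 0.0137) and differed by -0.28 at 6 h (adjusted p = 0.135). At 3 h Rps27 had 211 and 204 with c-Fos shRNA, against 286 and 316 with control shRNA. Its 3 h call was lost without replicate 2 of either arm (-0.45 and -0.44, adjusted p of 0.0843 and 0.0844). The Rps27l call at 0 h was lost without replicate 2 of the control arm (0.25, adjusted p = 0.0639), and that at 3 h without replicate 1 of the c-Fos arm (0.24, adjusted p = 0.109) or replicate 2 of the control arm (0.27, adjusted p = 0.0729). The 6 h call was lost without replicate 1 of the c-Fos arm (0.17, adjusted p = 0.211) or either control array (0.27 and 0.25, adjusted p of 0.0925 and 0.104), while the average, 0.28, held in every fit. The paralogs Rpl39l and Rpl3l, known in mouse from testis and from striated muscle, were below the filter. Rpl39l ran from 9.87 to 29.5 with a median of 20.5 over 8 arrays with c-Fos shRNA and from 9.60 to 26.1 with a median of 16.4 with control shRNA. Rpl3l ran from 1.79 to 31.2 with a median of 7.0 and from 6.28 to 39.5 with a median of 13.1 in the same order.

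Rpl13a was higher by 0.20, 0.21, 0.17 and 0.18 (SE 0.03, adjusted p at most 0.00286). At 0 h its intensities were 16930 and 17053 with c-Fos shRNA, against 14628 and 14703 with control shRNA, and every c-Fos shRNA array of any time, from 16778 up, lay above every control array, up to 15967. All 4 of its probe sets were called higher on the average, by 0.16 to 0.32. Rps15, a protein that the small-subunit precursor needs to leave the nucleus, was higher at 1, 3 and 6 h by 0.14, 0.17 and 0.10, and at 0 h by 0.08 with the replicate block (adjusted p = 0.0314). At 3 h it had 10305 and 10615 with c-Fos shRNA, against 9470 and 9394 with control shRNA. The 6 h call was lost under no further normalization, one median, no filter and the untagged probe set (adjusted p of 0.0791, 0.119, 0.0593 and 0.828). Rps18 was higher at 3 and 6 h by 0.11 each, and both calls were lost with no filter. Rps19, in which mutations cause Diamond-Blackfan anaemia in people, was higher at 1 h by 0.12, a call held in 6 of the 16 fits that left out 1 array, and on the average by 0.10.

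Of the stalk proteins, which recruit elongation factors to the ribosome, Rplp0 and Rplp2 were measured, and Rplp1 was carried only by probe sets of several genes. Rplp0 was higher at 6 h by 0.08 (adjusted p = 0.0475) and on the average by 0.06, and Rplp2 on the average by 0.07. The call of Rplp2 was lost in some of the fits that left out 1 array. Rplp0 had 15934 and 16837 at 6 h with c-Fos shRNA, against 15241 and 16057 with control shRNA, so the arrays overlapped, and the 6 h call held in 0 of the 16 fits that left out 1 array. Rpl11, of the 5S particle, was called only with the replicate block. That call was for KCl at 6 h against 0 h with c-Fos shRNA (-0.10, limma adjusted p = 0.0319). Between the arms Rpl11 was not called at any time, with or without the block. At 6 h it averaged 11424.0 ± 26.5 (SD, n = 2) in the c-Fos arm and 11883.0 ± 538 in the control arm. Rps6, the substrate of the S6 kinases through which growth signals reach the small subunit, was not called in any comparison by its brighter probe set, at 727 and 808 with c-Fos shRNA against 669 and 851 with control shRNA at 6 h.

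By the probe sets that stood for the genes, the members lower with c-Fos shRNA differed by little on the average. Dimmer probe sets of Rps20, described below, were lower by far more. On the average Rpl27a was lower by 0.18 and Rps27 by 0.18, Rps20 by 0.11, Rpl37 by 0.09, and Rpl10a and Rpl7a by 0.04 each. At 6 h Rpl4 was lower by 0.13 and Rpl10a by 0.08, and the call of Rpl10a held in 0 of the 16 fits that left out 1 array. With the replicate block Rpl27a was called lower at 1 and 6 h as well (-0.25 each, adjusted p of 0.0155 and 0.0142) and Rps20 at 0 and 1 h (-0.12 and -0.15, adjusted p of 0.0107 and 0.0032). Rpl37 at 1 h and Rpl7a at 6 h were called with it too, at -0.15 and -0.09. The calls of Rpl10a and Rpl7a on the average and of Rpl4 and Rpl10a at 6 h were lost under no further normalization. Under one median the average calls of Rpl37 and Rps20 were lost too. With no filter those of Rpl37, Rpl7a and Rps27 were lost (limma adjusted p of 0.0623, 0.0746 and 0.0549). The average calls of Rpl37, Rpl7a and Rps27 were also lost in most of the 16 fits that left out 1 array. The average of Rpl27a held in every fit with its brighter probe set, while its dimmer one differed by 0.02 ± 0.12 (SE) on average and was not called (adjusted p = 0.928). Rps16 had no usable value, since its single-gene probe set ran from 1.0 to 5.52 with c-Fos shRNA and from 1.0 to 6.44 with control shRNA.

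Probe sets of the same gene did not always move alike. The 98 probe sets carried 29 plain identifiers and 69 with a letter tag, 40 of them with the x tag that marks probes able to bind other transcripts. Ribosomal protein genes have many processed pseudogenes in mouse, so such probe sets may read related transcripts. In a fit of single probe sets 91 of the 98 were tested, and 11.0% and 13.2% of them were called for KCl at 6 h with c-Fos shRNA and control shRNA, against 32.1% and 35.4% of 31526 probe sets. No member had probe sets called in opposite directions in one contrast of that fit, in which the fall of the brightest Rpl41 probe set with c-Fos shRNA at 6 h had an adjusted p of 0.0598. The 106 tested probe sets that name a ribosomal protein gene among several genes gave 13.2% called in each arm at 6 h, with medians of -0.02 and 0.01.

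The dimmer probe sets of some members differed far more than the bright one that stood for the gene. The following were singled out after their values were seen. Rps20 had a bright pair of probe sets that differed between the arms by -0.11 each on average, and a dim pair that differed by -1.22 and -1.21. The brighter of the dim pair had 309 and 442 at 0 h with c-Fos shRNA, against 821 and 838 with control shRNA. At 6 h it had 228 and 319 against 644 and 724, so the arms were far apart. Rps6 showed the opposite direction. Its dim probe set had 279 and 270 at 0 h with c-Fos shRNA, against 69.4 and 81.7 with control shRNA, a difference of 1.68 that was 1.86 on average, while its brighter probe set differed by 0.09 on average and was not called.

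KCl showed the same kind of split. The dimmest of 3 probe sets of Rpl22 fell by 0.56 in the c-Fos arm and 0.85 in the control arm at 6 h, with intensities of 4888 and 5377 at 6 h and 7487 and 7506 at 0 h with c-Fos shRNA. With control shRNA it had 2749 and 3456 at 6 h and 5041 and 5737 at 0 h. The other probe sets of Rpl22 changed by 0.04 and 0.11 with c-Fos shRNA and by 0.10 and 0.15 with control shRNA, and were not called. The dimmer probe set of Rps3, a small-subunit protein that also takes part in DNA repair, fell by 0.63 in both arms at 6 h, while its bright one changed by 0.02 and 0.04. For Rpl41, which encodes one of the smallest known proteins, the only plain probe set rose at every time, by 1.62, 0.76 and 0.67 in the c-Fos arm and by 1.43, 0.50 and 0.57 in the control arm. It had 1339 and 1459 at 1 h and 432 and 452 at 0 h with c-Fos shRNA, and 1101 and 1325 at 1 h and 462 and 396 at 0 h with control shRNA. The brightest probe set of Rpl41 changed by at most 0.08 in either arm. The dimmest of 4 probe sets of Rpl13a had a mean log2 level of 10.94 at 0 h and 11.68 at 6 h with control shRNA. With c-Fos shRNA it had 11.42 and 11.93. In the fit of single probe sets, 2 of these 4 were called higher at 6 h with control shRNA and 1 with c-Fos shRNA. For Rpl37a, the dimmest of 3 probe sets averaged 8.98, 9.38 and 9.68 (log2) after 0, 3 and 6 h in the c-Fos arm. The control arm gave 8.97, 9.19 and 9.17. Its brightest probe set was at 13.94 in the c-Fos arm both before KCl and after 6 h. In the same fit, 1 Rpl37a probe set was called higher in the c-Fos arm after 3 and 6 h, and 0 in the control arm. Between the arms 1 was called higher after 6 h, while the interaction was not called. Which transcripts each of these probe sets binds was not tested.

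**Figure D5:**
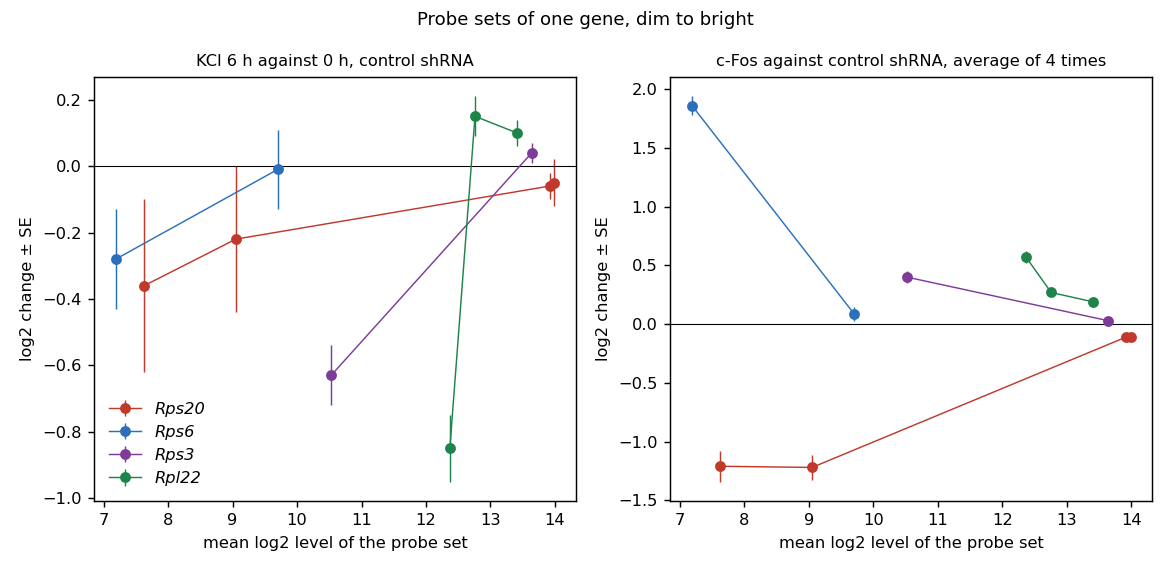
Log2 change with its SE (y axis) of each probe set of 4 members against the probe set's mean log2 level (x axis), for KCl at 6 h against 0 h with control shRNA on the left and for c-Fos shRNA against control shRNA, averaged over 4 times, on the right. The dim probe sets of Rps20 lie at -1.22 and -1.21 and that of Rps6 at 1.86 on the right, while the brightest probe set of each gene lies within 0.2 of 0.

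Of 9 listed ribosomal protein genes outside the symbol rule, 5 were measured alone and tested, and at 6 h of KCl 1 rose and 1 fell with c-Fos shRNA and 1 rose with control shRNA, against 41.0% and 44.1% of all genes called. Rps3a1, a small-subunit gene, fell by 0.10 with c-Fos shRNA. Between the arms on average, Rpl7l1, a paralog of Rpl7 found in nucleolar precursors, was higher by 0.31, Fau, which encodes a ubiquitin-like fusion with Rps30, by 0.08, and Rpsa, a small-subunit protein, by 0.06. Of 14 tested mRNAs for translation factors and other mRNAs with a pyrimidine tract, 1 rose and 3 fell at 6 h in each arm, against 16.1% of genes higher and 24.9% lower with c-Fos shRNA and 16.7% and 27.3% with control shRNA, with Eif4b, an initiation factor, falling by 0.32 in the c-Fos arm and 0.38 in the control arm. Eef1a1, the elongation factor that brings aminoacyl-tRNA, changed by 0.00 and -0.02 and was not called. Eef2, the translocation factor, was lower with c-Fos shRNA by 0.22 on average.

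Of 40 ribosome biogenesis genes, 8 rose and 11 fell at 6 h with c-Fos shRNA, and 7 rose and 13 fell with control shRNA, against 41.0% and 44.1% of all genes called. Nolc1, a nucleolar chaperone, rose by 1.26 in the c-Fos arm and 1.21 in the control arm. Fbl, the methyltransferase of ribosomal RNA, rose by 0.91 and 0.93, Sbds, which helps release Eif6 from the large subunit, by 1.17 and 0.75, and the pseudouridine synthase Dkc1 by 0.60 and 0.63. Ubtf, a transcription factor of RNA polymerase I, fell by 1.01 and 0.65, its polymerase subunit Polr1e by 0.66 and 1.06, and the processing factor Wdr12 by 0.61 and 0.93. Between the arms, 11 were higher and 7 lower on average, against 25.2% and 22.7% of genes, with Nip7 at 0.42, Polr1e at 0.41 and Tsr1 at 0.38 among the higher and Bop1 at -0.63 and Sbds at -0.44 among the lower.

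Of 16 tested genes that control ribosomal protein synthesis, 6 rose and 3 fell with c-Fos shRNA at 6 h and 4 rose and 4 fell with control shRNA. Over all genes 16.1% rose and 24.9% fell with c-Fos shRNA and 16.7% rose and 27.3% fell with control shRNA. The translation repressors Eif4ebp2 and Eif4ebp1 rose, by 1.29 and 0.70 with c-Fos shRNA and by 1.02 and 1.24 with control shRNA. Rheb, the direct activator of mTOR, rose by 0.59 and 0.69. Mtor itself fell by 0.73 and 0.74, and the transcription factor Mycn fell by 1.23 and 1.06. Between the arms, 3 were higher and 8 lower on average, against 25.2% and 22.7% of genes. Larp1 was lower with c-Fos shRNA by 0.56 (adjusted p = 1.36e-07), Mycn by 0.44 and Eif4ebp2 by 0.33, and Sp1, Eif4ebp1 and Mdm2 were higher by 0.47, 0.40 and 0.40.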

How the data were processed

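Per the labels' protocols, total RNA was amplified with biotin and 10 µg of labelled cDNA was hybridised per array. The authors' deposited values are linear intensities, 1 for each probe set on each array, spanning 0.51 to 23935.63. How they were summarized and scaled is not given in the sources used here. Because the medians of the 16 arrays spread from 104.75 to 118.56, the log2 of the deposited intensity plus 16 was quantile normalized. The added 16 understates changes of dim genes. The probe set with the highest mean stood for a gene, and 13916 genes above the 30th percentile of mean were tested in limma 3.58.1 (R 4.3.3) with 8 group means over all 16 arrays, 8 residual degrees of freedom and an intensity trend. Code was tested on simulated data. Probe sets were named from the platform annotation (34945 of 45037 with 1 gene) and RefSeq. Precision is limited by having 2 arrays in a group. The members, lists and rule for naming genes (up to 6 called members each way per contrast, paralogs, stalk, 5S particle, Rps6, and 4 genes each way per other list) were chosen with earlier results of these data known. Differences between replicates 1 and 2 correlated between groups in all 28 pairs, at 0.364 to 0.596, so the labels' replicate numbers were taken to pair the arrays, and the fit with that block was an alternative. Other alternatives were no further normalization, one median, a pseudocount of 1, no filter, untagged probe sets and leaving out each array.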

Additional observations from a re-analysis of the deposited data

Results flagged for a closer look

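No cytosolic ribosomal protein gene met a criterion for a closer look. Among the mitochondrial ribosomal protein genes, Mrpl39 had a KCl change at 6 h that differed between the arms by 0.40 on the log2 scale (interaction in limma, adjusted p = 0.0468). Its change at 6 h was 0.16 with c-Fos shRNA (adjusted p = 0.0565) and -0.24 with control shRNA (adjusted p = 0.00536). Without the replicate block, 1 of the 76 mitochondrial genes was called for this interaction, 1.32%, against 1.24% of all genes.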

How the results depend on the processing

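With no further normalization, called members numbered 0 and 2 for KCl at 1 and 6 h in the c-Fos arm, and 6 for the arm difference at 6 h. With arrays shifted to one median they numbered 2 for KCl at 6 h in the c-Fos arm, 1 and 3 at 1 and 3 h in the control arm, and 7 for the arm difference at 6 h. With no filter the last was 6. With untagged probe sets KCl at 1 and 3 h gave 2 and 3 in the c-Fos arm, and KCl at 1 h gave 1 in the control arm. The replicate block gave 2, 3 and 11 for KCl at 1, 3 and 6 h in the c-Fos arm, 2, 8 and 11 in the control arm, 11 and 14 for the arm difference at 0 and 1 h, and 2 for the interaction at 6 h; it moved no other count by over 1.5 times. The cause of these shifts was not tested. A pseudocount of 1 kept all calls of named genes. Untagged probe sets reversed Rpl41 for KCl at 6 h with c-Fos shRNA (0.67) and Hnrnpa1 between the arms at 6 h (0.17) and on average (0.18).

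Leaving out 1 array gave 0 to 1, 0 to 2 and 1 to 4 called members for KCl at 1, 3 and 6 h in the c-Fos arm, 0 to 1, 3 to 5 and 3 to 7 in the control arm, and 5 to 7, 4 to 7, 6 to 9 and 5 to 9 for the arms at 0, 1, 3 and 6 h. It gave 16 to 20 for the average and 0 for each interaction. The KCl counts fell lowest, to 0 at 3 h in the c-Fos arm, without replicate 2 of its 0 h or replicate 1 of its 3 h, to 1 at 6 h without replicate 2 of its 0 h or 6 h, and to 3 in the control arm without replicate 1 or 2 of its 0 h or replicate 2 of its 3 h (3 h) and without replicate 2 of its 0 h (6 h), the last being 4 without replicate 1 of its 1 h or 6 h. The arm counts fell to 4 at 1 h without control replicate 2 and to 5 at 6 h without either c-Fos array or control replicate 2, and to 6 without control replicate 1. The array left alone in its group is assumed to vary like the others. Of the named members' calls, 4 of 18 for KCl, 14 of 32 at single times between the arms and 11 of 17 on the average held in every alternative. Precision rests on 2 arrays per group.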
